A study of Mus musculus with 16 samples.

Results

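The genes described here are 9 synaptic effectors of neuronal activity: Arc, Homer1, Bdnf, Ntrk2, Vgf, Nrn1, Nptx1, Nptx2 and Nptxr. They were taken by symbol from the 24421 genes of the deposited tables, and all 9 had reads in every library. Cortex RNA came from mice of 4 groups: undisturbed wild-type (CTL-WT), wild-type after sleep disruption (SD-WT), undisturbed AcPb-/- (CTL-AcPbKO) and AcPb-/- after sleep disruption (SD-AcPbKO). Each group held 3 libraries, and the labels describe 4 further samples, 1 of SD-WT, 2 of CTL-AcPbKO and 1 of SD-AcPbKO, that were not analysed here. According to the labels the mice were male, wild-type C57BL/6 or homozygous AcPb-/-, bred in the authors' colony and aged 2 to 3 months, and whether the genotypes were littermates is not given in the sources used here. AcPb is the brain isoform of the accessory protein of the interleukin-1 receptor, and the labels give no cell type or promoter for its loss. SD was by gentle handling for 8 h from ZT20 to ZT4, ZT being hours from lights on, and mice of all 4 groups were killed at ZT4. The tissue was somatosensory cortex, and the question was how SD, loss of AcPb, and both together changed RNA levels.

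When a neuron is strongly excited, calcium entering the cell switches on immediate early genes within minutes, among them transcription factors and effectors such as Arc that act directly at the synapse. Secreted effectors follow: BDNF acts on its receptor TrkB, VGF and its peptides travel in dense-core vesicles, and neuronal pentraxins gather AMPA receptors at the cell surface. In the cortex such RNAs are known to rise with waking and with sensory drive, and several are used as readouts of recent neuronal activity.

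Promoter sequence was at hand for 3 of the 9 genes, Homer1, Bdnf and Ntrk2, as RefSeq windows of 250 bases before a transcript start on GRCm38.p6, the build also called mm10. The windows that matched an activity-related motif are printed because the cAMP response element, the site of the activity-regulated factor CREB, is read here by its core TGACG, searched on both strands. Capitals mark that core, as TGACG on the printed strand or as its reverse complement CGTCA. The Homer1 window, chr13:93303507-93303756 on the plus strand, held 3 matches, beginning 56, 40 and 14 bases before the start, and the Bdnf window, chr2:109692186-109692435 on the plus strand, held 1, beginning 35 bases before the start.
Homer1: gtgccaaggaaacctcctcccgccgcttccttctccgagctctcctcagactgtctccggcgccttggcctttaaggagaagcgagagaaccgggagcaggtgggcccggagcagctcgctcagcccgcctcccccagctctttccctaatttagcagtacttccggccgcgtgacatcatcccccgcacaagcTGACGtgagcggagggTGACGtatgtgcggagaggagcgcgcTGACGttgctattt
Bdnf: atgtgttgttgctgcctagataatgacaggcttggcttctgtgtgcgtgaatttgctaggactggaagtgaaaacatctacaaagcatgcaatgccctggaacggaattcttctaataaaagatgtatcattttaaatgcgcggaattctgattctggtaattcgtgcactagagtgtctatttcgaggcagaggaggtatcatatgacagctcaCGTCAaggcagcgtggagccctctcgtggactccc

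The core TGACG stood in 17.8% of the 32851 mouse windows of this length, and 3 or more matches stood in 0.688% of them. The other window of Homer1, the other 6 of Bdnf and the window of Ntrk2 held no match to any motif searched. Those were, on both strands, TGACG, the full element TGACGTCA that contains it, the AP-1 site TGACTCA or TGAGTCA, the Egr sites GCGTGGGCG and GCGGGGGCG, and the CArG box of serum response factor. Of all windows, 1.55% held TGACGTCA, 4.46% the AP-1 site, 0.536% and 2.57% the Egr sites in that order, and 1.47% the CArG box. A match describes letters only, and gene-level counts do not show which start a transcript used.

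The reads counted on genes numbered 26504840 to 41615582 in the 6 control libraries and 58770286 to 71857505 in the 6 SD libraries, so that depth differed with treatment, by a factor of at least 1.41 between any SD library and any control. Values are given below as normalized counts, reads divided by a size factor for each library with all 12 libraries scaled together. Reads of Xist, the RNA of the inactive X chromosome, numbered 25352 to 39358 in 4 libraries and 5 to 13 in the other 8, and the same 4 held 0 to 2 Y-linked reads against 5105 to 10593, although the labels describe males. All 4 were controls, namely CTL-WT replicates 2 and 3 and CTL-AcPbKO replicates 4 and 5, so that each control group had 1 library without Xist and each SD group had 3. In SD-AcPbKO replicate 4, Ttr, a choroid plexus marker, stood at 16186 normalized counts, against 10.6 to 283 in the other 11 libraries. Il1rap, the gene that encodes AcPb, stood at 1476 to 1520 in CTL-WT and at 1515 to 1647 in CTL-AcPbKO, and these counts do not separate the brain isoform from the others. Markers of excitatory neurons summed to 253498 to 294609 in CTL-WT, 250367 to 330609 in SD-WT, 279650 to 324241 in CTL-AcPbKO and 285770 to 327516 in SD-AcPbKO, a sum made up mostly of Camk2a. Of the 3, Neurod6 was higher after SD in both genotypes, while Slc17a7 had log2 fold changes of -0.24 (limma adjusted p = 0.0662) and -0.21 (adjusted p = 0.086), with every SD library below the controls of its genotype. The summed level of 5 cortical layer markers was 16086 to 16389 and 12877 to 13999 in wild-type controls and after SD, and 16344 to 19560 and 12843 to 14634 in AcPb-/- mice, but its markers went both ways: Fezf2 rose (0.43, limma adjusted p = 0.00491, and 0.75, adjusted p = 0.0355), Cux2 fell by 0.30 (adjusted p = 0.0202) and fell by 0.57 (adjusted p = 0.0112), and Rorb fell by 0.56 (adjusted p = 0.000645) in wild-type mice and stood at -0.57 (adjusted p = 0.0679) in AcPb-/- mice. The part of these marker differences in the results below was not tested. The red blood cell markers, 4 of 4, were listed at 0 in all 12 libraries. In bulk tissue, fewer cells of a type and less RNA per cell cannot be told apart.

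SD raised most of these RNAs by less than 2-fold in both genotypes and lowered 1 of them strongly. Homer1, Bdnf, Vgf, Nrn1 and Nptx1 rose, by 1.33-fold to 1.51-fold in wild-type mice and by 1.24-fold to 1.69-fold in AcPb-/- mice. Nptxr fell to 0.198 and 0.166 of its control level in wild-type and AcPb-/- mice. Arc, Ntrk2 and Nptx2 did not pass the threshold in either genotype. Thus 6 of 9 genes passed in wild-type mice, 5 higher and 1 lower, where 25.4% of 20417 genes tested passed (13.2% higher and 12.2% lower). In AcPb-/- mice the same 6 of 9 passed, 5 higher and 1 lower, where 27.4% of 20574 genes passed (14.1% higher and 13.3% lower). The median log2 fold change of the 9 genes was 0.46 in wild-type mice, against a median of -0.0039 over all genes tested, and 0.51 against 0.014 in AcPb-/- mice. By ranges alone, with the 6 libraries of a comparison scaled together, SD libraries did not overlap controls for 7 of the 9 genes in wild-type mice, 6 higher and 1 lower, where this held for 40.2% of all genes (20.5% higher and 19.7% lower). In AcPb-/- mice it held for 8 of the 9, 7 higher and 1 lower, against 42.3% of all genes (21.7% and 20.7%). The test was limma on log2(normalized count + 1), with p-values adjusted over all genes by the Benjamini-Hochberg method and a threshold of 0.05. Without the 4 Xist libraries, which left 1 control per genotype, all 6 genes kept their direction, but none of them passed in wild-type mice and 2 of them, Homer1 (limma adjusted p = 0.045) and Nrn1 (0.0435), passed in AcPb-/- mice.

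**Figure D1:**
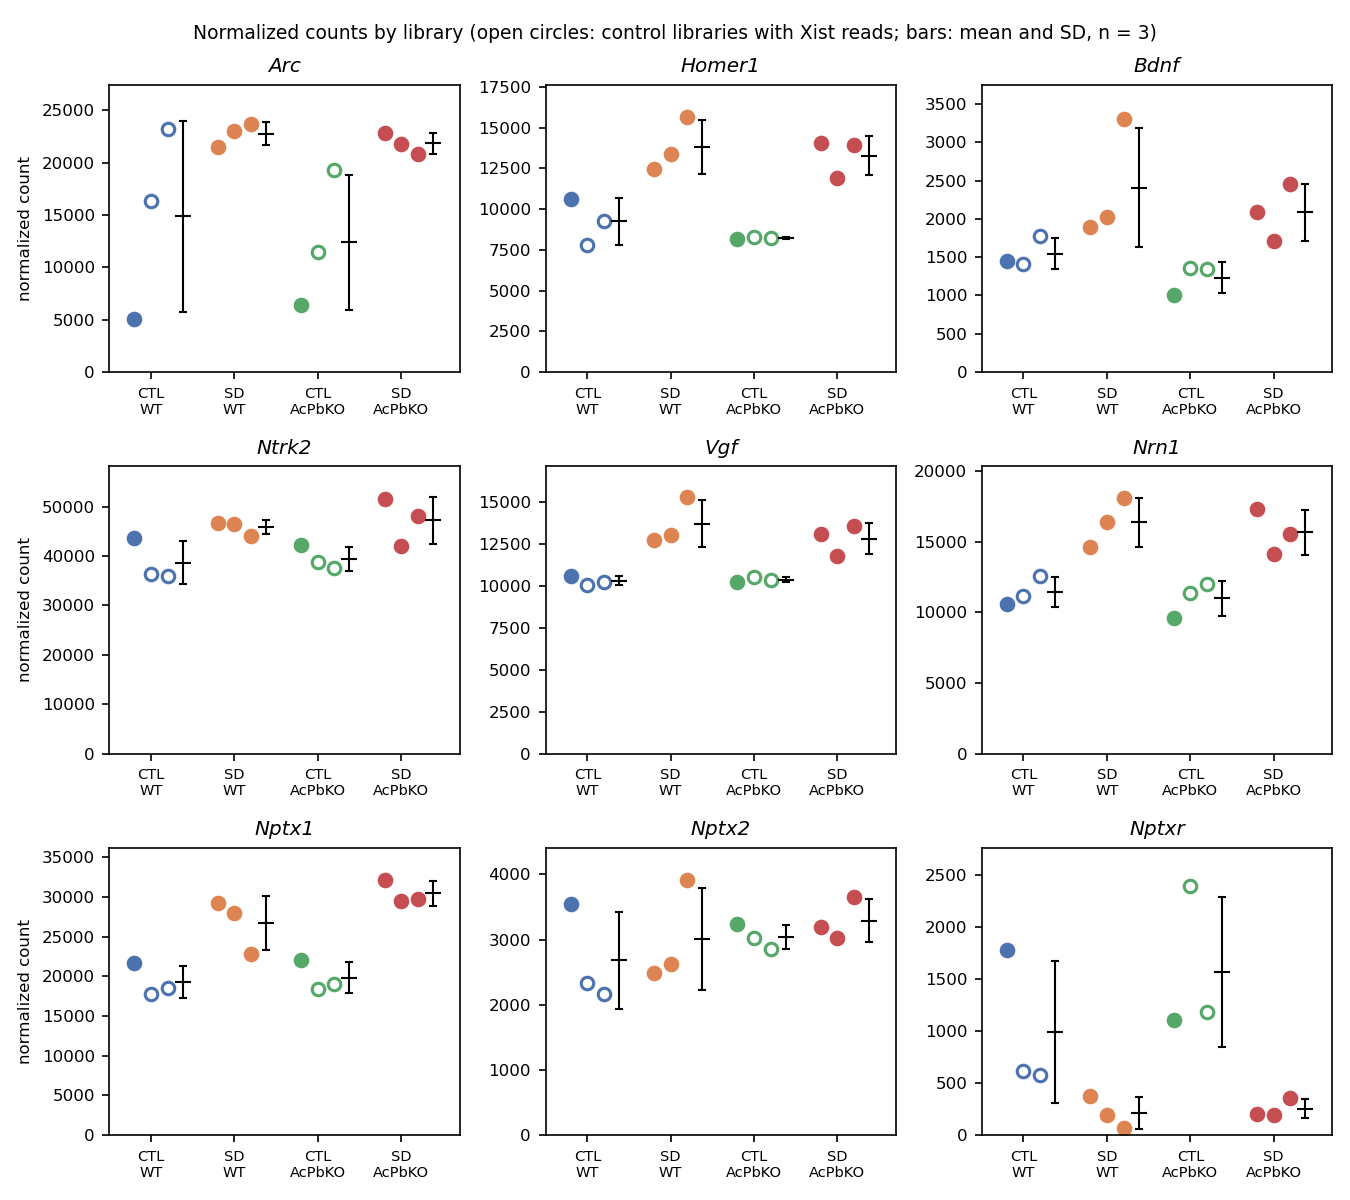
Normalized counts (y axis) of the 9 genes in each of the 12 libraries, by group (x axis), with the mean and SD of each group of 3 at its right; open circles are the 4 control libraries with Xist reads. SD libraries lie above all controls of their genotype for Homer1, Bdnf, Vgf, Nrn1 and Nptx1, and below them for Nptxr, while the Arc controls range from 5061 to 23206.

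Arc encodes a capsid-like protein that drives AMPA receptors out of the synapse, and its RNA travels into dendrites. The gene lies at chr15:74669083-74672570 on the minus strand (mm10, GENCODE M21, used for all positions below). In the 3 wild-type controls Arc stood at 5061, 16308 and 23206 normalized counts, and after SD at 21523, 23053 and 23700. The AcPb-/- controls held 6445, 11491 and 19264, and the SD libraries 22859, 21797 and 20835. The SD libraries were all high and close together while the controls were spread widely: the coefficient of variation was 61.6% and 52.1% in wild-type and AcPb-/- controls but 4.91% and 4.64% after SD. In wild-type mice the groups overlapped, since 1 control exceeded 2 of the SD libraries, and in AcPb-/- mice they did not.

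The log2 fold change of Arc was 0.87 (SE 0.42, 95% interval -0.054 to 1.80, limma adjusted p = 0.157) in wild-type mice and 0.96 (SE 0.32, 0.24 to 1.67, limma adjusted p = 0.0527) in AcPb-/- mice. In each genotype the lowest control was the library without Xist. The mean after SD was 4.50 times that control and 1.15 times the mean of the controls with Xist in wild-type mice, and 3.39 times and 1.42 times in AcPb-/- mice. With a term for Xist in the fit of all 12 libraries, Arc rose by 1.92 (limma adjusted p = 0.000593) and 2.00 (adjusted p = 0.000255) on the log2 scale. Each SD library held 5 to 13 Xist reads, like the controls called without Xist here. This fit thus sets SD against the level of such controls. Only 1 control per genotype lacked Xist, so it is not independent of the next fit. Without the 4 Xist libraries, with 1 control left per genotype, the changes were 2.17 (limma adjusted p = 0.0052) and 1.76 (adjusted p = 0.0177). Against the Xist controls alone they were 0.23 (limma adjusted p = 0.436) in wild-type mice and 0.55 (adjusted p = 0.0443) in AcPb-/- mice. Leaving out the highest control, CTL-WT replicate 3 or CTL-AcPbKO replicate 5, gave 1.32 (limma adjusted p = 0.0289) and 1.34 (adjusted p = 0.00463). The part of Xist status in the spread of Arc cannot be told apart from other differences between these single libraries.

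Other immediate early genes, chosen after their values were seen, also differed between these control libraries. Fos, which encodes an AP-1 subunit, stood at 678 in the wild-type control without Xist and at 2328 to 3215 in those with it, and at 1232 against 1921 to 2596 in AcPb-/- controls. After SD Fos stood at 1188 to 1905 in wild-type and 1480 to 1662 in AcPb-/- mice, below all 4 Xist controls. Nr4a1, an orphan nuclear receptor induced by activity, was at 3170 against 6568 to 8657 and at 4078 against 6010 to 7939 in the same order. Egr1 and Junb were likewise lower in the library without Xist in both genotypes. Npas4, a factor specific to neuronal activity, was lower in the library without Xist in wild-type controls (1068 against 1633 to 1820) and higher there in AcPb-/- controls (2494 against 1473 to 1808).

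Homer1 encodes a postsynaptic scaffold that ties group I metabotropic glutamate receptors to the Shank network, and its short activity-induced form, Homer1a, uncouples them. These counts cannot separate the short form from the long ones. The gene lies at chr13:93299635-93405129 on the plus strand, and the window with 3 TGACG cores printed above ends at an internal start of it. Homer1 stood at 10648, 7795 and 9294 normalized counts in wild-type controls and at 12447, 13400 and 15658 after SD. The controls of AcPb-/- mice held 8143, 8262 and 8229, and the SD libraries 14057, 11902 and 13916. All SD libraries were above all controls in both genotypes, and the AcPb-/- controls had a coefficient of variation of 0.746%. Homer1 rose by 0.59 (SE 0.11, limma adjusted p = 0.00508) on the log2 scale in wild-type mice, which is 1.5-fold, and by 0.69 (SE 0.073, limma adjusted p = 0.000792) in AcPb-/- mice, which is 1.62-fold. Leaving out any single library kept both calls, while without the Xist libraries the wild-type change was 0.37 (limma adjusted p = 0.197).

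Bdnf encodes brain-derived neurotrophic factor, a secreted ligand that strengthens active synapses. It lies at chr2:109674700-109727007 on the plus strand and has several promoters, 1 of them in the printed window, and the counts add their transcripts together. Wild-type controls held 1456, 1409 and 1776 normalized counts of Bdnf, and the libraries after SD 1890, 2030 and 3298. The AcPb-/- controls held 1006, 1356 and 1339, and those after SD 2089, 1712 and 2457. Again no SD library fell within the range of its controls, but SD-WT replicate 4 stood far above the other 2. Bdnf rose by 0.60 (SE 0.18, limma adjusted p = 0.033) in wild-type mice, 1.51-fold, and by 0.76 (SE 0.15, limma adjusted p = 0.00726) in AcPb-/- mice, 1.69-fold. The wild-type call was lost without CTL-WT replicate 1 (limma adjusted p = 0.0906), CTL-WT replicate 2 (0.12) or SD-WT replicate 2 (0.0507), against the Xist controls alone (0.0861), without the Xist libraries (0.276), with a pseudocount of 10 (0.0501) and with DESeq2 (0.0731). Without SD-WT replicate 4 it stayed past the threshold at a log2 fold change of 0.35 (limma adjusted p = 0.0247).

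Ntrk2 encodes TrkB, the receptor of BDNF, both as the full-length kinase in neurons and as truncated forms that astrocytes make in quantity, and the counts add these forms together. The gene lies at chr13:58806569-59133970 on the plus strand. Its normalized counts were 43625, 36362 and 36019 in wild-type controls and 46731, 46545 and 44141 after SD. For AcPb-/- mice they were 42149, 38725 and 37475 in controls and 51614, 42108 and 48042 after SD. The wild-type groups did not overlap, and in AcPb-/- mice the lowest SD library and the highest control were nearly level, overlapping in this scaling of 12 libraries and not when the 6 AcPb-/- libraries were scaled alone. The log2 fold changes were 0.25 (SE 0.085, 95% interval 0.059 to 0.44, limma adjusted p = 0.0563) and 0.26 (SE 0.093, 0.049 to 0.47, limma adjusted p = 0.069), so that the receptor did not pass in either genotype. DESeq2 and edgeR on reads put it past the threshold, with adjusted p = 0.016 (DESeq2) and 0.0354 (edgeR) in wild-type and 0.0154 (DESeq2) and 0.038 (edgeR) in AcPb-/- mice. So did leaving out CTL-WT replicate 1 (0.34, limma adjusted p = 0.0116), SD-WT replicate 4 (adjusted p = 0.0396) or SD-AcPbKO replicate 3 (0.34, limma adjusted p = 0.0219). The summed level of 5 astrocyte markers was 192725 to 227623 in CTL-WT, 196693 to 220301 in SD-WT, 193175 to 218481 in CTL-AcPbKO and 185096 to 202982 in SD-AcPbKO, most of it from Slc1a2. Of the single markers, Aldh1l1 fell by 0.35 in both genotypes (limma adjusted p = 0.0213 and 0.0218), and Aqp4 fell by 0.17 in wild-type mice (adjusted p = 0.0477) and stood at -0.20 in AcPb-/- mice (adjusted p = 0.149). Gfap stood at -0.034 in wild-type and -0.34 in AcPb-/- mice (limma adjusted p = 0.845 and 0.095). Slc1a2 stood at 0.036 and -0.071 (limma adjusted p = 0.83 and 0.661), and Gja1 at 0.00096 and -0.053 (adjusted p = 0.994 and 0.541). The part of these 5 markers in the values of Ntrk2 was not tested.

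Vgf encodes a secreted neuropeptide precursor that neurotrophins and activity induce. It lies at chr5:137026392-137033351 on the plus strand. The wild-type controls held 10588, 10053 and 10231 normalized counts, and the SD libraries 12744, 13027 and 15308. The AcPb-/- mice held 10217, 10529 and 10309 in controls and 13092, 11761 and 13558 after SD. Controls of both genotypes lay within a narrow band, with coefficients of variation of 2.65% and 1.55%, and each SD library stood above it. Vgf rose by 0.41 (SE 0.075, limma adjusted p = 0.00402) in wild-type mice, 1.33-fold, and by 0.31 (SE 0.067, limma adjusted p = 0.0106) in AcPb-/- mice, 1.24-fold. Its transcript is among the richest in G and C, at percentile 99.5 of 12677 genes. Once the trend of each library with GC content and length was removed, the change was larger, at 0.70 (limma adjusted p = 0.000766) and 0.73 (adjusted p = 0.00153).

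Nrn1 encodes neuritin, a small membrane-anchored protein that promotes growth and stabilisation of neurites and synapses. The gene lies at chr13:36725361-36735131 on the minus strand, where 22.3% of its exon length overlaps Fars2 on the opposite strand. Fars2 had 6857 reads over all 12 libraries, fewer than Nrn1 had in most single libraries, and the strand setting of the counting is not given in the sources used here. Normalized counts of Nrn1 were 10565, 11141 and 12616 in wild-type controls and 14649, 16431 and 18081 after SD. They were 9633, 11408 and 12015 in AcPb-/- controls and 17338, 14161 and 15583 after SD. All SD values were above all control values in both genotypes, with similar spread in each group. Nrn1 rose by 0.52 (SE 0.090, limma adjusted p = 0.00315) in wild-type and by 0.51 (SE 0.10, limma adjusted p = 0.00706) in AcPb-/- mice, 1.43-fold in each.

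Nptx1, Nptx2 and Nptxr make up the neuronal pentraxin family: NPTX1 and NPTX2 are secreted, and NPTXR is their membrane-bound partner, with which they form mixed complexes that cluster AMPA receptors at excitatory synapses. After SD Nptx1 rose, Nptxr fell and Nptx2 did not pass the threshold, and differences between the 3 genes were not tested. Nptx1, at chr11:119538719-119547753 on the minus strand, stood at 21659, 17835 and 18487 normalized counts in wild-type controls and at 29284, 27971 and 22868 after SD. In AcPb-/- mice Nptx1 stood at 22059, 18466 and 19008 in controls and at 32211, 29450 and 29709 after SD. SD libraries were above all controls, narrowly so for SD-WT replicate 4. Nptx1 rose by 0.46 (SE 0.10, limma adjusted p = 0.00981) in wild-type mice, 1.38-fold, and by 0.62 (SE 0.083, limma adjusted p = 0.00147) in AcPb-/- mice, 1.54-fold. The wild-type call was lost without CTL-WT replicate 2 (0.41, limma adjusted p = 0.0538) and with a term for Xist (0.30, limma adjusted p = 0.0554).

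Nptx2, the member known as an immediate early gene under the name Narp, lies at chr5:144545902-144557478 on the plus strand. Its normalized counts were 3539, 2335 and 2170 in wild-type controls and 2481, 2627 and 3912 after SD. The AcPb-/- values were 3231, 3026 and 2857 in controls and 3190, 3018 and 3659 after SD. Control and SD values overlapped in both genotypes, and the highest wild-type values belonged to 1 library of each group. The log2 fold changes were 0.17 (SE 0.19, 95% interval -0.26 to 0.60, limma adjusted p = 0.579) and 0.11 (SE 0.083, -0.074 to 0.30, limma adjusted p = 0.354). The wild-type value turned to -0.037 without SD-WT replicate 4 and stayed above 0 without any other single library, and it was -0.094 with a term for Xist and -0.27 without the 4 Xist libraries. With the GC and length trend removed, Nptx2 passed in AcPb-/- mice at 0.31 (limma adjusted p = 0.0337) and not in wild-type mice at 0.31 (adjusted p = 0.252).

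Nptxr, at chr15:79786351-79804766 on the minus strand, was the gene that fell. Its normalized counts were 1775, 613 and 579 in wild-type controls and 371, 194 and 66.6 after SD. For AcPb-/- mice they were 1110, 2396 and 1184 in controls and 201, 197 and 356 after SD. No SD library reached any control, although the libraries within a group differed by up to 5.56-fold. The values rest on 435 to 1402 reads in controls and 90 to 550 reads after SD, from libraries of larger total. Nptxr fell by 2.34 (SE 0.56, limma adjusted p = 0.0131) on the log2 scale in wild-type mice and fell by 2.59 (SE 0.32, limma adjusted p = 0.00112) in AcPb-/- mice.

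The fall of Nptxr was not tied to 1 library. Leaving out any single library kept both calls, though the wild-type fall shrank to -1.67 without SD-WT replicate 4 (limma adjusted p = 0.0195) and -1.81 without CTL-WT replicate 1 (adjusted p = 0.0433). Against the Xist controls alone Nptxr fell by 1.81 (limma adjusted p = 0.0391) and fell by 2.80 (adjusted p = 0.00371). Without the 4 Xist libraries the change was -3.39 (limma adjusted p = 0.0895) and -2.20 (adjusted p = 0.166), past the threshold in neither genotype. In base composition Nptxr stood at percentile 94.6 of GC content, and with the GC and length trend removed it fell by 2.19 (limma adjusted p = 0.0161) and fell by 2.37 (adjusted p = 0.00245). Nptxr shares 17.2% of its exon length, and 58.8% of its coding bases, with Npcd on the same strand, a gene with 18 reads in all 12 libraries. Reads on the shared bases can be left out or assigned to either gene, so the level of Nptxr is uncertain. The other 8 genes shared no stretch of 100 bases with another gene.

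**Figure D2:**
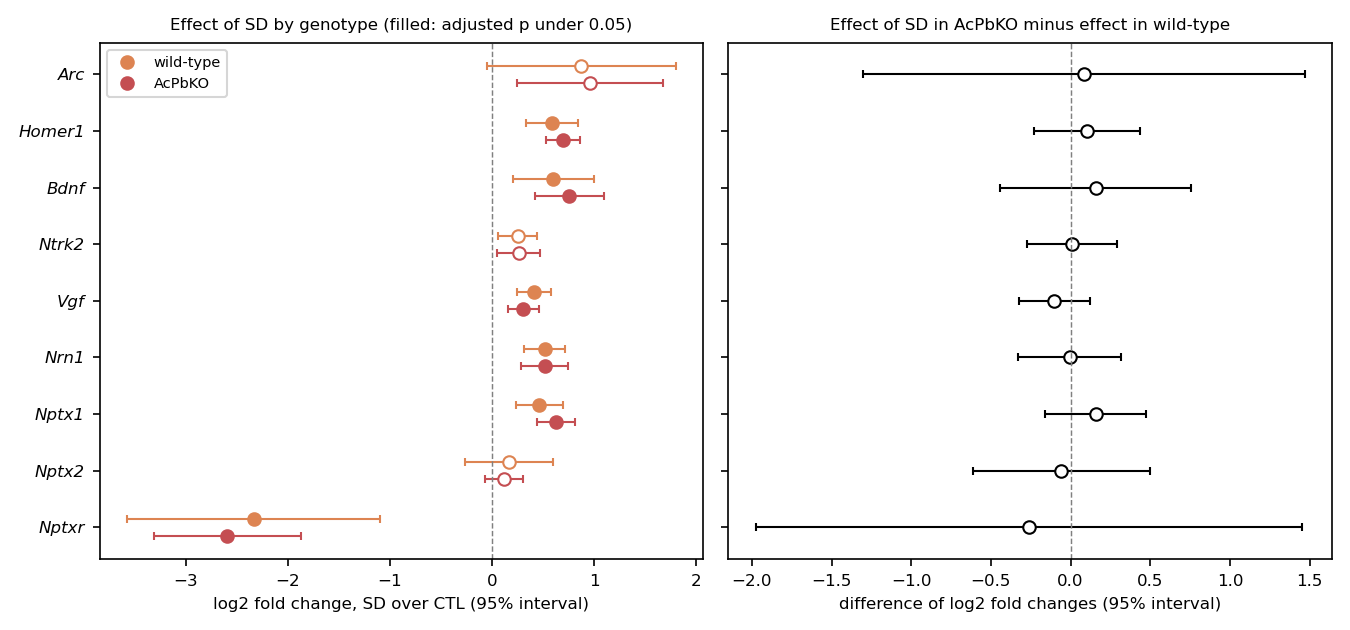
Left, log2 fold change of SD over CTL (x axis) with its 95% interval for each gene (y axis) in wild-type (orange) and AcPb-/- (red) mice, filled where the limma adjusted p was under 0.05. Right, the effect in AcPb-/- minus that in wild-type mice with its 95% interval: all 9 intervals include 0, and those of Arc and Nptxr are the widest.

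**Figure D3:**
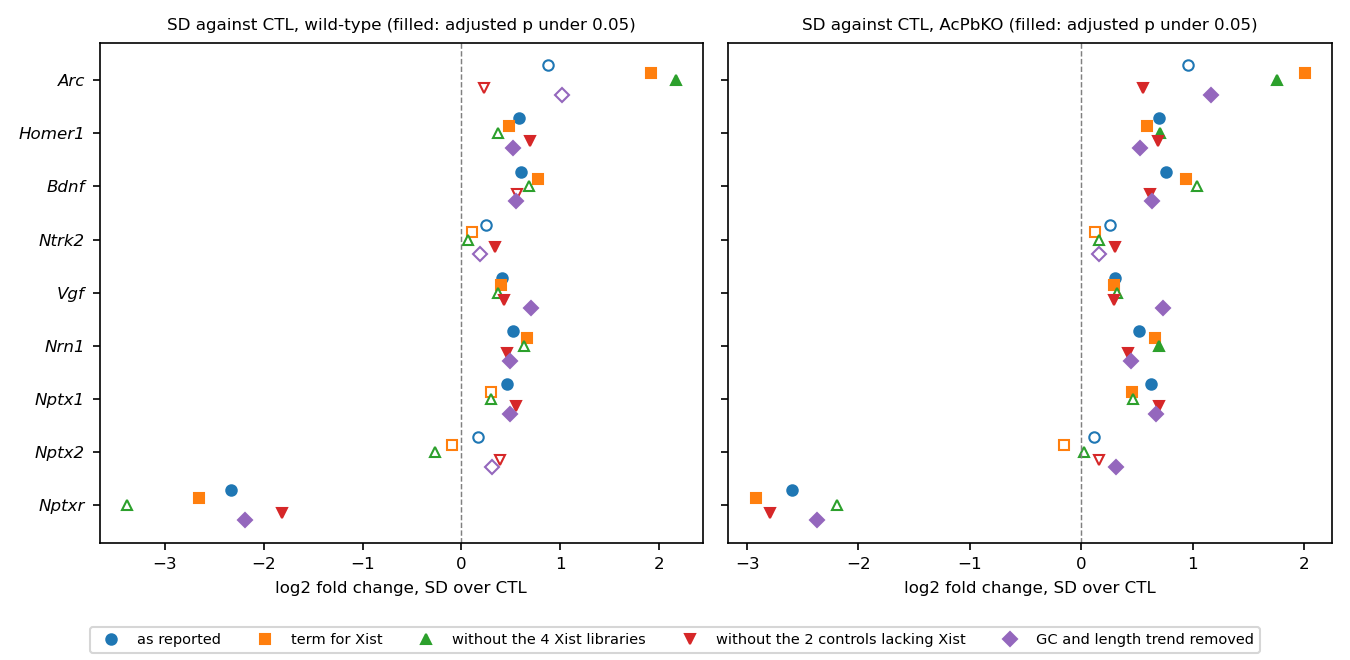
Log2 fold change of SD over CTL (x axis) for each gene (y axis) in wild-type (left) and AcPb-/- mice (right) as reported and in 4 other fits, filled where the adjusted p was under 0.05. Arc moved most with the treatment of the Xist libraries, from 0.23 to 2.17 in wild-type mice, while Homer1, Bdnf, Vgf, Nrn1 and Nptx1 stayed above 0 and Nptxr below 0 in all of these fits.

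The genotypes were compared next, first in undisturbed mice. None of the 9 genes passed, where 4 of 20273 genes tested (0.0197%) passed and 1730 had an unadjusted p under 0.05. Bdnf had the lowest p of the 9, at a log2 difference of -0.33 (SE 0.12, unadjusted p = 0.0248, limma adjusted p = 0.508), and was lower in all 3 AcPb-/- controls than in all 3 wild-type controls. Groups did not overlap for 14.4% of all genes in this comparison, and 7.04% were lower in this way. For Nptxr the difference was 0.77, with a 95% interval of -0.16 to 1.71 (limma adjusted p = 0.65). After SD none of the 9 passed either, where 3 of 20621 genes (0.0145%) passed and 1265 had an unadjusted p under 0.05. Nptx1 was higher in all 3 SD-AcPbKO libraries than in all SD-WT libraries, by 0.20 on the log2 scale (95% interval -0.023 to 0.42, limma adjusted p = 0.855), and groups did not overlap for 11.4% of all genes, 5.35% being higher in this way.

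The difference of the SD effect between genotypes was tested as an interaction over all 12 libraries, and 0 of 9 genes and 0 of 20978 genes passed with limma, while 839 genes had an unadjusted p under 0.05 and DESeq2 called 1 gene. The difference, AcPb-/- minus wild-type on the log2 scale, was 0.10 for Homer1 (95% interval -0.23 to 0.44), 0.16 for Bdnf (-0.44 to 0.76) and 0.0075 for Ntrk2 (-0.28 to 0.29). It was -0.10 for Vgf (-0.33 to 0.12), -0.0054 for Nrn1 (-0.33 to 0.32) and 0.16 for Nptx1 (-0.16 to 0.47). These intervals leave out a difference of 1 log2 unit for the 6 genes, but that is larger than the SD effect of any of them. Differences near the size of an SD effect are not left out for all 6. For Ntrk2 the interval reaches -0.28, where its wild-type SD effect was 0.25. A difference of 1 log2 unit is not left out for Arc (0.082, -1.30 to 1.47) or Nptxr (-0.26, -1.97 to 1.45), whereas it is for Nptx2 (-0.057, -0.61 to 0.50).

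SD-AcPbKO libraries were also compared with CTL-WT libraries, which carries both changes at once and shares its libraries with the comparisons above. Again 6 of 9 genes passed, 5 higher and 1 lower, where 27.7% of 20560 genes passed (14.1% higher and 13.6% lower). Ranges did not overlap for 4 genes that were higher and 1 that was lower, and for 42.4% of all genes (21.6% and 20.8%). Nptx1 had the lowest p, at a log2 fold change of 0.66 (limma adjusted p = 0.000813), and Homer1 rose by 0.53 (adjusted p = 0.00654). Nrn1 rose by 0.46 (limma adjusted p = 0.00537), Bdnf by 0.42 (adjusted p = 0.0352) and Vgf by 0.31 (adjusted p = 0.00768). Nptxr fell by 1.82 (limma adjusted p = 0.00748). Arc (0.81, limma adjusted p = 0.191), Nptx2 (0.33, adjusted p = 0.157) and Ntrk2 (0.29, adjusted p = 0.0602) did not pass. The call of Bdnf was lost without CTL-WT replicate 1 or 2 or SD-AcPbKO replicate 2 or 4 (limma adjusted p = 0.0929, 0.126, 0.119 and 0.115), and that of Nptxr without SD-AcPbKO replicate 2 (adjusted p = 0.0506). Without CTL-WT replicate 1, Nptx2 passed at 0.54 (limma adjusted p = 0.00422) and Ntrk2 at 0.38 (adjusted p = 0.0257), and Arc passed at 1.27 without CTL-WT replicate 3 (adjusted p = 0.0463). Over all 16 alternative fits of this comparison, the call was lost in 7 for Bdnf and in 2 for Nptxr. In the same fits Ntrk2 passed in 6, Arc in 2 and Nptx2 in 1.

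Levels of different genes were compared per kilobase of exon. In undisturbed wild-type mice the order of mean normalized counts per kilobase was Nrn1 at 5087 ± 470 (SD, n = 3), Arc at 4860 ± 2996, Nptx1 at 3705 ± 392 and Vgf at 3461 ± 91.6. Neighbours among these 4 had overlapping ranges. Ntrk2 followed at 2004 ± 223, apart from Vgf above and from Nptx2 below at 1057 ± 295. Nptx2 and Homer1 (772 ± 119) overlapped, as did Bdnf (249 ± 32.1) and Nptxr (191 ± 132), with a gap between Homer1 and Bdnf. The place of Nptxr is uncertain because of its overlap with Npcd.

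Within the 9 genes, libraries that were high in one were often high in others. Over the 12 libraries, which share the contrast of SD and control and its depth, Pearson's r on log2(normalized count + 1) was 0.95 for Homer1 and Vgf, 0.92 for Vgf and Nrn1, 0.91 for Bdnf and Nrn1 and 0.90 for Ntrk2 and Nptx1. For Nptxr it was negative with all 8 others, from -0.88 with Nrn1 to -0.16 with Nptx2. When each library was taken as its deviation from its group mean, Bdnf and Vgf kept an r of 0.86, Homer1 and Vgf 0.80, and Ntrk2 and Nptx1 0.75, whereas Arc and Ntrk2 gave -0.73 and Bdnf and Nptx1 -0.70. In such deviations Nptxr had an r of 0.59 with Nptx1, 0.47 with Ntrk2, -0.017 with Homer1 and -0.024 with Nptx2. With Arc, Bdnf, Vgf and Nrn1 it ran from -0.46 to -0.28.

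The genes most like each of the 9 were sought by r over the 12 libraries among 12556 genes with a mean of at least 100 normalized counts, and these r are descriptions of libraries that share treatment and depth. Homer1 was closest to Ncbp1 (0.99), Cdkn1a (0.98) and Lrrk2 (0.98), and Nptx1 to Cog1 (0.99), Fryl (0.98) and Kidins220 (0.98), the last a membrane scaffold of neurotrophin receptors. Ntrk2 was closest to Gas7 (0.98) and to Grin2b (0.97), which encodes an NMDA receptor subunit. Bdnf was closest to Ube2w (0.98), Vgf to Rnf4 (0.98), and Nrn1 to Mtpap (0.98). Arc was closest to Tiparp (0.97), Tnfrsf25 (0.96) and Plk3 (0.96), and in deviations from group means to Nol9 (0.99), Dusp1 (0.98) and Nr4a1 (0.98). The best match of Nptx2 was weaker, Tnnt2 at 0.90, and in deviations its closest genes, Elp4, Hspa5 and Hyou1, had an r of 0.96, 0.96 and 0.95. Nptxr was closest to Zfp771 (0.98), Scand1 (0.97) and Oplah (0.95), at GC percentiles 99.9, 99.9 and 92.7.

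The wider pathways of the 9 genes were described by 7 lists, without the 9 genes, each as a count beside 25.4% of all genes in wild-type and 27.4% in AcPb-/- mice. These shares, here and above, are over every gene with a read, including genes of low counts. No share among genes of like level was taken. Of 26 genes of BDNF and TrkB signaling, 8 passed in each genotype (30.8%), 7 higher and 1 lower, with a median log2 fold change of 0.070 and 0.090. Plat, the tissue plasminogen activator of the protease pathway that processes proBDNF, rose by 0.44 (limma adjusted p = 0.00163) and 0.52 (adjusted p = 0.00207), and the adaptor Shc3 by 0.45 (adjusted p = 0.00964) and 0.35 (adjusted p = 0.0384). The docking protein Frs3 fell by 0.38 (limma adjusted p = 0.0102) and fell by 0.54 (adjusted p = 0.004). Of 24 partners of Homer and Arc at the postsynaptic density, 5 passed in wild-type (20.8%) and 7 in AcPb-/- mice (29.2%), among them the scaffolds Shank2 (0.42, limma adjusted p = 0.00308, and 0.36, adjusted p = 0.0105) and Dlgap4 (0.37, adjusted p = 0.00413, and 0.37, adjusted p = 0.0168).

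Of 19 genes of the pentraxin family and its partners, 5 passed in each genotype (26.3%). The synaptic organisers Cbln4 (1.18, limma adjusted p = 0.000135, and 1.09, adjusted p = 0.000524) and Lrrtm2 (0.34, adjusted p = 0.00549, and 0.56, adjusted p = 0.00141) rose. Gria1, an AMPA receptor subunit, rose in wild-type mice (0.32, limma adjusted p = 0.0211) and stood at 0.39 (adjusted p = 0.0984) in AcPb-/- mice. Of 17 granins and neuropeptide processing genes, 6 passed in each genotype (35.3%). The vesicle proteins Scg2 (1.0, limma adjusted p = 0.00029, and 1.11, adjusted p = 0.00061) and Chgb (0.56, adjusted p = 0.00287, and 0.75, adjusted p = 0.00061) rose, like Vgf, while Pcsk1n, an inhibitor of prohormone convertase 1, fell by 0.59 (limma adjusted p = 0.00602) and fell by 0.95 (adjusted p = 0.000693). Of 16 membrane-anchored and secreted neurite growth genes, 6 (37.5%) and 5 (31.2%) passed. Nrn1l, the paralog of Nrn1, fell by 0.93 (limma adjusted p = 0.016) and fell by 1.11 (adjusted p = 0.0177), and the GDNF family receptor Gfra2 rose by 0.47 (adjusted p = 0.00853) and 0.61 (adjusted p = 0.000727).

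Of 20 activity-regulated transcription factors, 8 (40%) and 10 (50%) passed, 4 higher and 4 lower in wild-type and 6 higher and 4 lower in AcPb-/- mice. Egr3 rose by 1.02 (limma adjusted p = 0.000293) and 0.88 (adjusted p = 0.00107), while its relative Egr4 fell by 0.92 (adjusted p = 0.00254) and fell by 1.21 (adjusted p = 0.000614). Of 29 other activity-regulated effectors, 14 passed in each genotype (48.3%), 12 higher and 2 lower in wild-type and 10 higher and 4 lower in AcPb-/- mice, with median log2 fold changes of 0.29 and 0.28. Inhba, a subunit of activin, rose by 0.94 (limma adjusted p = 0.00154) and 1.46 (adjusted p = 0.000614), and Ptgs2, the inducible cyclooxygenase, by 0.97 (adjusted p = 0.000293) and 1.03 (adjusted p = 0.0069). No gene of the 7 lists passed in either comparison of genotypes or in the interaction.

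**Figure D4:**
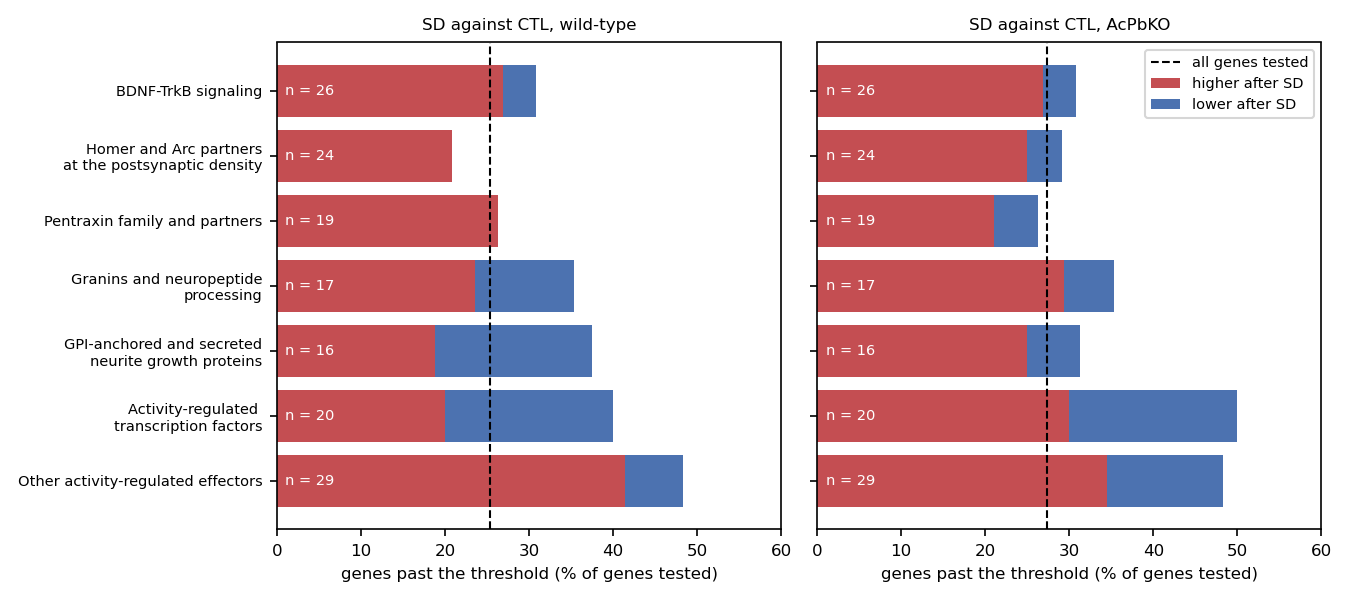
Share of the genes tested (x axis, percent) that passed the limma threshold after SD in each of 7 lists (y axis, n genes tested), in wild-type (left) and AcPb-/- mice (right), split into higher (red) and lower (blue). The dashed line is the share over all genes, 25.4% and 27.4%, and the list of other activity-regulated effectors, at 48.3% in both, does not include the 9 genes described here.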

How the data were processed

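Reads were paired-end, 100 bp, aligned by the authors with HISAT2 2.2.1 to mm10. The paper names HTSeq for counting and the labels name featureCounts. The 5 deposited tables list 24421 genes. Their per-library columns are signal, gene counts that the authors divided by DESeq2 size factors. The authors' comparison columns, 5 per table, hold log2 fold changes and standard errors (log2 scale), a Wald statistic (a score) and p-values, and were not used. Size factors were undone, and 100.0% of 732630 values came within 0.01 of a whole read.

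Groups were compared 2 at a time in limma 3.58.1 (R 4.3.3) with a variance trend on log2(normalized count + 1), over all genes not at 0 throughout, and adjusted by the Benjamini-Hochberg method. The interaction used all 12 libraries scaled by median of ratios. Alternatives were pseudocounts of 0.1 and 10, a mean of at least 10, DESeq2 1.42.0, edgeR 4.0.16, TMM scaling, thinning to 26504840 reads, a replicate block, all 4 groups in one fit, a term for Xist, and omission of each library in turn. Fits chosen after seeing the data were those without either kind of control library and the removal of each library's GC and length trend (loess span 0.3, 23376 genes of GENCODE M21, 95.7%).

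The 9 genes and the lists were chosen with earlier results of these data known. All 9 genes are named in every comparison, with up to 4 genes of a list past the threshold with the largest changes, and the genes of highest r. Same-numbered libraries were not treated as paired: the correlation of their deviations ran from -0.60 to 0.36 over 10 pairs. It was 0.29 and 0.36 for replicates 2 and 4 of SD-WT and SD-AcPbKO, whose differently numbered pairs ran from -0.39 to 0.23. Between SD and control libraries of a genotype the same-numbered pairs ran from -0.096 to 0.076. Over the 44 pairs of unlike number the correlation ran from -0.60 to 0.68, highest for CTL-WT replicate 1 with CTL-AcPbKO replicate 3. Replicates differed beyond sampling noise. The labels do not name the animal of a library, so p-values measure the spread between these samples. The tests were tested on simulated data, in which all genes were given the same spread parameter and no control differed in Xist, unlike these data. Python 3.11.15, NumPy 2.4.6, pandas 2.3.3 and matplotlib 3.10.9 were used.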

Additional observations from a re-analysis of the deposited data

How the results depend on the processing

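In the SD comparisons the 6 genes past the threshold kept their direction in all 228 alternative fits, and 30 of these lost the call, 20 in wild-type and 10 in AcPb-/- mice. With a replicate block 0 of 9 genes and 0 of all genes passed after SD in wild-type or AcPb-/- mice and in SD-AcPbKO against CTL-WT, with 6889 genes at an unadjusted p under 0.05 in wild-type mice, and 0 genes passed between genotypes after SD. The sources used here do not say whether the numbers pair samples. No blocked fit was possible between genotypes in controls, which share 1 number. Without the 4 Xist libraries 1 of 9 and 680 of all genes passed in wild-type and 3 of 9 and 2080 in AcPb-/- mice, with the lone control of a genotype assumed to vary like the other groups. Leaving out 1 library gave 4 to 7 of the 9 genes in wild-type mice, 6 to 7 in AcPb-/- mice and 4 to 7 in SD-AcPbKO against CTL-WT, and 0 otherwise. Over all genes it gave 2699 to 6222, 3393 to 5412 and 3393 to 6008 in the same order, 0 to 168 between genotypes in controls (168 without CTL-AcPbKO replicate 3), 0 to 4 after SD and 0 to 9 for the interaction.

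Between genotypes in controls (4 genes) a pseudocount of 10 and thinning gave 0, DESeq2 93, edgeR and all groups in one fit 8, and the Xist term 7. After SD (3 genes) DESeq2 gave 97, edgeR 9, all groups in one fit 5 and the Xist term 13. The interaction (0 genes) gave 1 with DESeq2 and 6 without the controls that lack Xist. Signs of small effects turned. Nptx2 after SD turned to -0.17 with the block, -0.094 with the Xist term and -0.27 without the Xist libraries in wild-type mice and to -0.15 with the Xist term in AcPb-/- mice. Vgf between genotypes in controls turned to -0.0034 on thinning. In the interaction the block gave -0.050 for Ntrk2, 0.11 for Nrn1 and 0.062 for Nptx2, and removal of the GC and length trend -0.024 for Ntrk2, 0.026 for Vgf and 0.00017 for Nptx2. Without the Xist libraries it was -0.41 for Arc, 0.071 for Nrn1, 0.29 for Nptx2 and 1.19 for Nptxr, and without the controls that lack Xist -0.0094 for Homer1 and -0.034 for Ntrk2. Leaving out 1 library turned other small effects, over a range of -0.037 to 0.39 for Nptx2 after SD in wild-type mice. Between genotypes in controls the ranges were -0.79 to 0.31 for Arc, -0.018 to 0.12 for Ntrk2, -0.0082 to 0.030 for Vgf, -0.12 to 0.035 for Nrn1 and -0.042 to 0.12 for Nptx1. Between genotypes after SD they were -0.13 to 0.038 for Homer1, -0.33 to 0.075 for Bdnf, -0.025 to 0.12 for Ntrk2, -0.14 to 0.012 for Nrn1 and -0.15 to 1.08 for Nptxr. For the interaction they were -0.37 to 0.73 for Arc, -0.0034 to 0.22 for Homer1, -0.082 to 0.088 for Ntrk2, -0.099 to 0.068 for Nrn1, -0.27 to 0.15 for Nptx2 and -0.93 to 0.30 for Nptxr. Except where a fit itself held fewer samples, the cause of a change was not tested.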
